A study of Mus musculus with 6 samples.

Results

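The genes described here encode the ephrins and their Eph receptors, the class 3 semaphorins with their neuropilin and plexin receptors, and the Slits with their Robo receptors, the main families of cell guidance signals. They were taken by symbol, and 46 of the 20007 gene identifiers in the data were members. These were 5 ephrin-A and 3 ephrin-B ligands, 8 EphA and 5 EphB receptors, 7 class 3 semaphorins, 2 neuropilins, 9 plexins, 3 Slits and 4 Robos. Epha10 was not analysed here. The samples were CiSCs, Sertoli-like cells obtained by exposing passaged mouse embryonic fibroblasts to small molecules whose names the labels do not give, MSCs, which are Sertoli cells prepared from testes of mice at postnatal day 60, and MEFs, mouse embryonic fibroblasts from embryos at 13.5 days post coitum. CiSCs carry that same embryonic age. Cells of every group came from KM mice, were grown in culture, and carried no labelled genetic change. Each group had 2 libraries of total RNA, sequenced to ask whether CiSCs resemble Sertoli cells in their expression profile. No group of MEFs passaged without the compounds was among the samples, so passaging and the compounds cannot be told apart. MSCs and MEFs differ in tissue and age as well as in cell type. Separate cultures or animals behind the 2 libraries of a group are not mentioned in the labels. Every p-value therefore sets a difference against the spread between libraries within the 3 groups, which may be technical.

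Ephrins are ligands held in the cell membrane, and Eph receptors are receptor tyrosine kinases on the neighbouring cell. Their contact sends signals into both cells and often leads to repulsion, to sorting of cells or to boundaries between them. Class 3 semaphorins are secreted and mostly bind a neuropilin, which pairs with a plexin that carries the signal inward, while several other semaphorins bind plexins directly. Slits are large secreted proteins that bind Robo receptors and repel axons and migrating cells. These families are best known from the nervous system and also act in blood vessels and epithelia, and Slits and Robos are made in the developing gonad. Sertoli cells are the epithelial nurse cells of the seminiferous tubule, which hold germ cells and build the blood-testis barrier.

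Library totals lay between 19294671 and 20418587 expected counts. Levels are given in CPM, a gene's reads scaled to the size of its library with TMM factors (from the trimmed mean of log ratios between libraries), and 3 reads over a group, the limit that a count of 0 allows, correspond to 0.0709 CPM in CiSCs, 0.0806 CPM in MSCs and 0.0769 CPM in MEFs, with counting error only. Of 14 Sertoli markers, 8 in CiSCs, 12 in MSCs and 7 in MEFs reached a mean of 1 CPM. Their sums were 5153 and 4420 CPM in CiSCs, 6156 and 9049 CPM in MSCs, and 195 and 174 CPM in MEFs. Clu alone averaged 4377, 6191 and 5.77 CPM in that order of groups. The highest mean lay in MSCs for 12 of these markers and in CiSCs for 2, Tjp1 and Krt18. Fshr, the receptor for follicle-stimulating hormone, had 0 reads in CiSCs and in MEFs and only 8 in MSCs. All 11 fibroblast markers reached 1 CPM in all 3 groups. The 12 leukocyte markers summed to 34.6 and 50.0 CPM in CiSCs, 1405 and 1326 CPM in MSCs, and 11900 and 19400 CPM in MEFs, led by Lyz2, which encodes a lysozyme of macrophages. Endothelial markers numbered 4 of 12 at 1 CPM in CiSCs, 10 in MSCs and 5 in MEFs, and summed to 36.1 and 39.8 CPM in CiSCs, 111 and 117 CPM in MSCs, and 197 and 123 CPM in MEFs. Cldn5, a defining endothelial junction gene, had 0 reads in CiSCs and in MEFs. The 8 Leydig cell markers summed to at most 12.3 CPM in CiSCs, 1579 CPM in MSCs and 13.0 CPM in MEFs, and the 6 peritubular myoid markers to at most 1704, 3934 and 3654 CPM in the same order of groups. None of the 6 germ cell markers in the data reached 1 CPM in CiSCs or MEFs and 2 did in MSCs, and of 6 neural and glial markers 1, 2 and 2 did in CiSCs, MSCs and MEFs. The part of any of these cell types in the values below was not tested, and in bulk RNA fewer cells of a type and less RNA per cell cannot be told apart.

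The 2 MEF libraries lay farther apart than those of the other groups. With 0.1 CPM added, 1 tested member in CiSCs (Plxnb3), none in MSCs and 9 in MEFs differed by more than 2-fold between the libraries of a group, against 3.12%, 2.7% and 9.38% of all 15272 genes tested. The 9 in MEFs were Epha3, Epha4, Robo1, Robo3, Robo4, Sema3c, Sema3e, Slit2 and Slit3. Of these, all but Robo4, with 0 and 2 reads, were higher in the first MEF library.

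**Figure D1:**
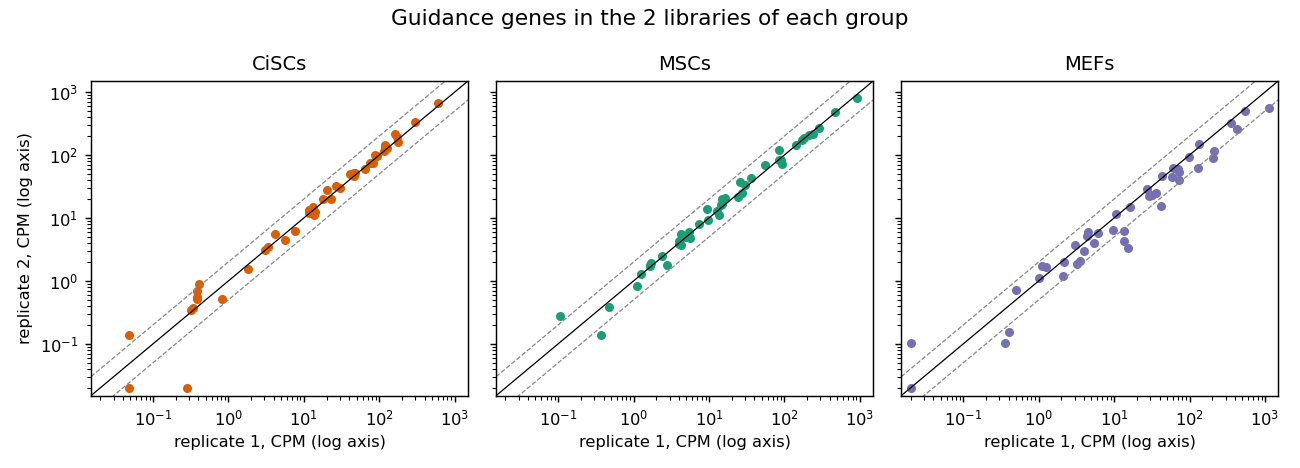
CPM of each guidance gene in the second library (vertical axis) against the first library (horizontal axis) of CiSCs, MSCs and MEFs, on log axes, with dashed lines at a 2-fold difference and 0 CPM drawn at 0.02. Among genes above 1 CPM in both libraries of a group, points outside the dashed lines appear only in the MEF panel.

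Guidance genes differed in both directions in every comparison, with 4 of 5 ephrin-A genes and all 3 ephrin-B genes higher in CiSCs than in MEFs and 5 of 9 plexins lower. Tests covered 44 members, since Epha5 and Epha8 did not pass the filter for low counts. Ephb1, Robo3, Robo4 and Sema3g passed it only through MSCs and Slit1 only through MEFs, the group where each is high. These genes had to differ, so their p-values are no support, and the counts describe these 44. Relative to MEFs, CiSCs had 18 members higher and 12 lower at an edgeR adjusted p under 0.05, which is 40.9% and 27.3%, where 19.6% and 21.3% of all genes tested were called. The median log2 fold change of the members was 0.41, against −0.0022 for all genes. Relative to MSCs, CiSCs had 18 higher and 16 lower, or 40.9% and 36.4%, where 17.7% and 25.1% of all genes were called, with medians of 0.13 and −0.025. MSCs had 17 members higher and 12 lower than MEFs, or 38.6% and 27.3%, where 22.5% and 20.0% of all genes were called, with medians of 0.15 and 0.010. In either direction, 40.9%, 42.8% and 42.5% of all genes were called in these 3 comparisons, in the order given. Each pair of comparisons shares a group, so the 3 sets of calls are not independent of each other. A fit without 1 library leaves a single library in that group, so its spread comes from the other groups. Without either MEF library more of all genes were called in every comparison, and without a CiSC or MSC library fewer were. A call gained without an MEF library is therefore no result about that gene. With one MSC library left out, 11 members (without the first) or 10 (without the second) were called higher in CiSCs than in MSCs, where 8.84% and 8.59% of all genes were. Without the second MSC library 10 members were called higher in MSCs than in MEFs, where 13.4% of all genes were.

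**Figure D2:**
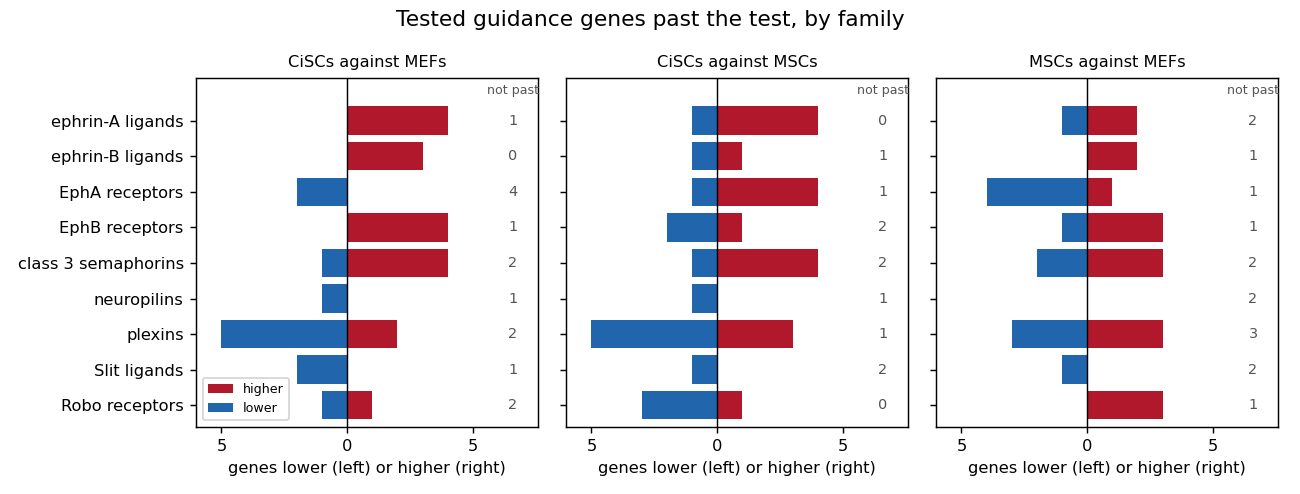
Number of tested guidance genes in each of 9 families called lower (bars to the left), called higher (bars to the right) or not called (numbers at the right edge) at an edgeR adjusted p under 0.05, for each of the 3 comparisons. All 3 ephrin-B genes and 4 of 5 ephrin-A genes were higher in CiSCs than in MEFs, and 5 of 9 plexins were lower.

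**Figure D3:**
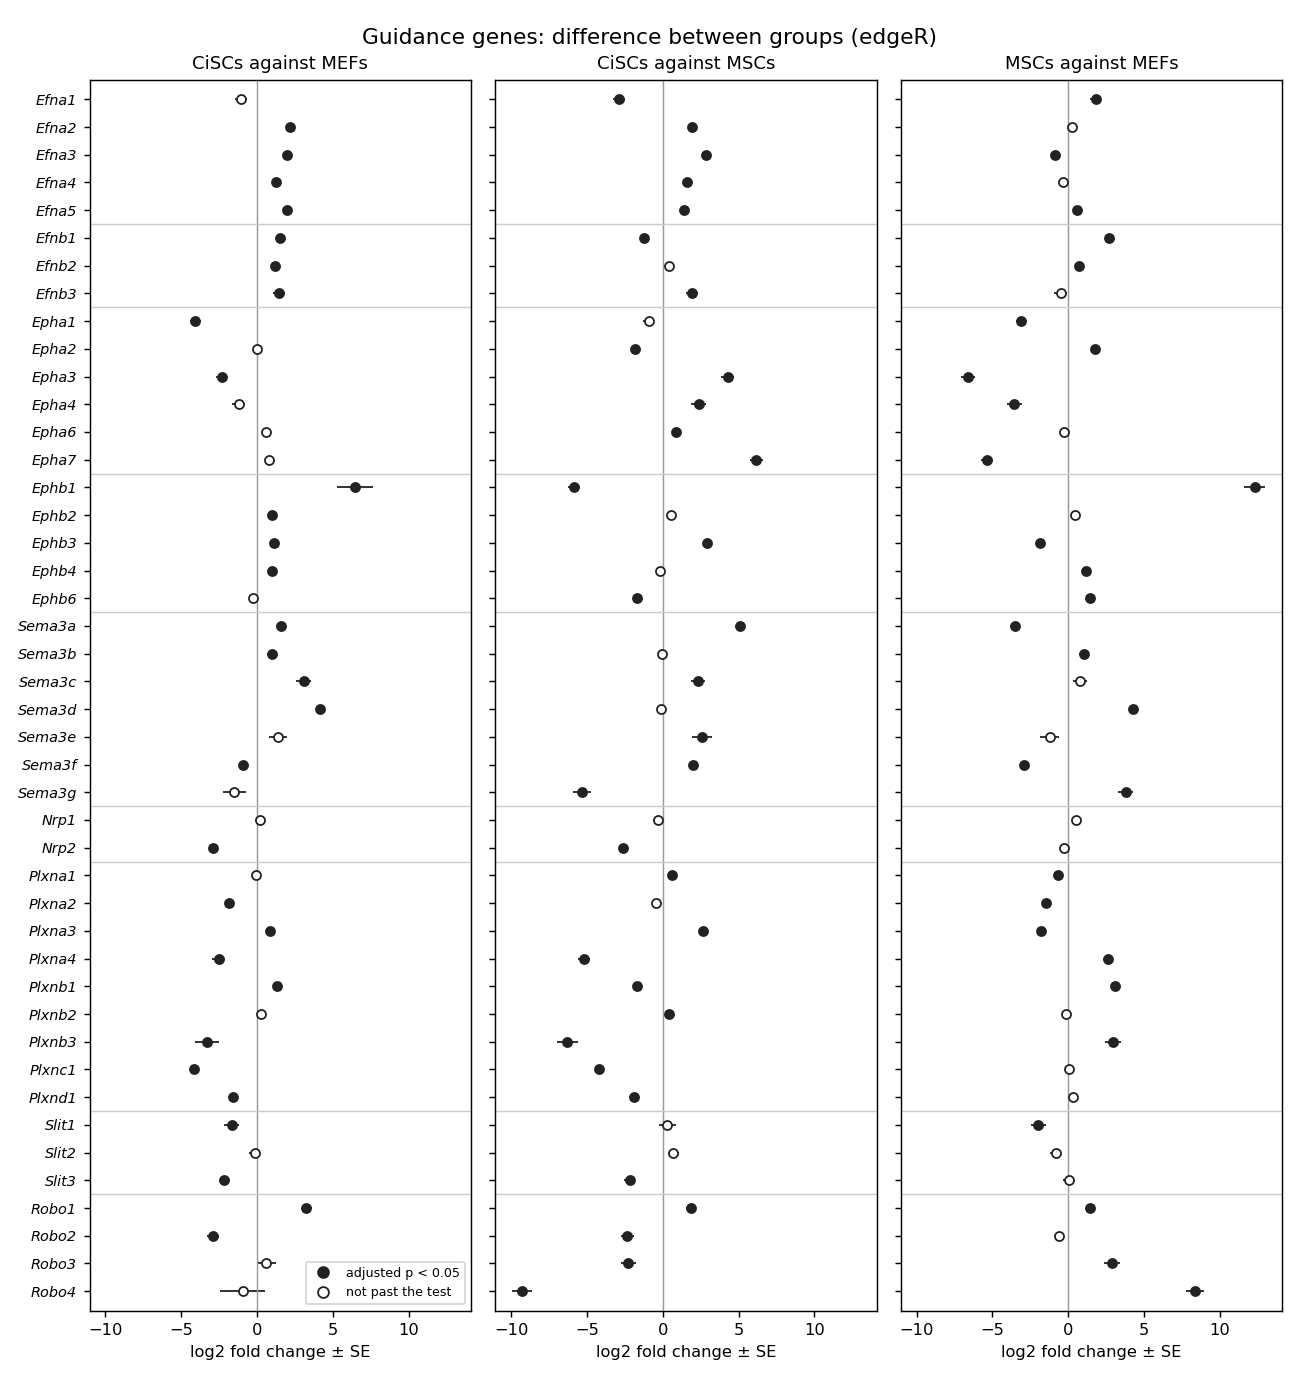
Log2 fold change of each tested guidance gene with its standard error (horizontal axis) in the 3 comparisons, grouped by family, where filled points have an edgeR adjusted p under 0.05. Genes called in both directions occur within the ephrin-A, ephrin-B, EphA, EphB, semaphorin, plexin and Robo families across the comparisons. The fitted values of Ephb1 against MEFs and of Robo4 rest on a group with 0 to 2 reads and are no bound.

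Ephrin-A genes encode ligands anchored in the membrane by a lipid, which bind mainly EphA receptors. Of 5, 4 were higher in CiSCs than in MEFs and the same 4, Efna2, Efna3, Efna4 and Efna5, were higher in CiSCs than in MSCs, while Efna1 was lower in CiSCs than in MSCs. Efna1, Efna3 and Efna4 lie next to each other on chromosome 3 with no other coding gene between them, so their promoters are shown as neighbours of which one did not follow the other pair. The windows come from RefSeq on build GRCm38.p6, while the reads had been aligned to mm9, and nothing was measured at these positions. Efna1 is at chr3:89280902-89281201 and has 2 listed starts, of which the more upstream is shown, Efna3 is at chr3:89322890-89323189, again the more upstream of 2, and Efna4 is at chr3:89337979-89338278, all on the minus strand. Capitals mark the GC box GGGCGG and the box CCAAT on either strand, so that CCGCCC and ATTGG are also in capitals.
Efna1: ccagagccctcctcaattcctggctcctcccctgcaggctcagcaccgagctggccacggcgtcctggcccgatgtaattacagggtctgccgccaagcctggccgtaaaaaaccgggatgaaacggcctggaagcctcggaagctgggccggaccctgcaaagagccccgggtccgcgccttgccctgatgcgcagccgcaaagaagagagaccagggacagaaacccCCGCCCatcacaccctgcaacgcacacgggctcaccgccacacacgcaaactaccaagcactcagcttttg
Efna3: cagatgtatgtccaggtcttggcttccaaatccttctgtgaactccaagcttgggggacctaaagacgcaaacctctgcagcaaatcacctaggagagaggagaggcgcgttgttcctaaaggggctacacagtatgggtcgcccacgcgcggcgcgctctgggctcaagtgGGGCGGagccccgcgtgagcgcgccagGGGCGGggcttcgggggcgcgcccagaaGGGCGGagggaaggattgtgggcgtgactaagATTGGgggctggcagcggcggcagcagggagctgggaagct
Efna4: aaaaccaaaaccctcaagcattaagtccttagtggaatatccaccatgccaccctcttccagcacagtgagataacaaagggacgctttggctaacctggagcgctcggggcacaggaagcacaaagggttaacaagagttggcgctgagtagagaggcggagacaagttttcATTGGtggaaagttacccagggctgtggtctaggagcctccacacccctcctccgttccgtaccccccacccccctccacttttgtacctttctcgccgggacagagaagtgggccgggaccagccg
The GC box was found 1 time for Efna1, 3 times for Efna3 and 0 times for Efna4, and the CCAAT box 0, 1 and 1 times. Over the 46 windows of the 40 members with an entry, 71.7% held the GC box, against 35.7% of all 32851 windows, and 30.4% held CCAAT, against 37.4%. These matches describe letters and not binding.

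Efna2 was present at 23.1 and 19.7 CPM in CiSCs, 5.37 and 6.08 CPM in MSCs, and 4.35 and 5.15 CPM in MEFs. Both CiSC libraries lay above all others, and MSCs and MEFs lay close together. Efna2 had a log2 fold change of 2.17 ± 0.19 (edgeR adjusted p = 0.000289) in CiSCs against MEFs and 1.90 ± 0.19 (edgeR adjusted p = 0.000393) in CiSCs against MSCs. For Efna3 the values were 14.1 and 12.6 CPM in CiSCs, 1.70 and 1.96 CPM in MSCs, and 2.98 and 3.69 CPM in MEFs. The 3 groups did not overlap, with CiSCs highest and MSCs lowest. The log2 fold change of Efna3 was 2.00 ± 0.21 (edgeR adjusted p = 0.000635) against MEFs and 2.87 ± 0.23 (edgeR adjusted p = 0.000144) against MSCs. Efna4 stood at 13.6 and 11.1 CPM in CiSCs, 4.04 and 4.29 CPM in MSCs, and 4.55 and 5.87 CPM in MEFs, in CiSCs again above both other groups (1.25 ± 0.22 on the log2 scale against MEFs, edgeR adjusted p = 0.00503, and 1.57 ± 0.22 against MSCs, edgeR adjusted p = 0.00176). Efna5, a ligand that guides retinal axons, read 64.0 and 59.7 CPM in CiSCs, 24.0 and 21.7 CPM in MSCs, and 16.2 and 14.9 CPM in MEFs. Its 3 groups were separate in the order CiSCs, MSCs, MEFs. Efna5 differed by 1.99 ± 0.14 (edgeR adjusted p = 9.7e-05) on the log2 scale in CiSCs against MEFs and by 1.43 ± 0.13 (edgeR adjusted p = 0.000277) against MSCs. Efna1, first found as a gene induced by an inflammatory cytokine in endothelial cells, read 0.811 and 0.515 CPM in CiSCs, 4.79 and 5.05 CPM in MSCs, and 1.11 and 1.72 CPM in MEFs. MSCs were above the other groups and CiSCs below them, with a log2 fold change of −2.88 ± 0.37 (edgeR adjusted p = 0.00111) in CiSCs against MSCs and −1.09 ± 0.39 (edgeR adjusted p = 0.0641) against MEFs, the second not past the threshold. Between MSCs and MEFs, Efna1 and Efna5 were higher in MSCs and Efna3 lower, at edgeR adjusted p values of 0.00668, 0.017 and 0.0252. Those calls were lost without the second MSC library for Efna1 (0.0564), and without any one CiSC or MSC library for Efna3 (0.0555 to 0.149) and Efna5 (0.0636 to 0.145). Efna1 in CiSCs against MEFs was at −1.39 without the first MEF library. Exons of Efna3 and Efna4 overlap another annotated gene over 14.6% and 10.5% of their length, and since the counting method is not given, some of their reads may belong to those genes.

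Ephrin-B genes encode ligands that span the membrane and signal inward through their own tails. All 3 were higher in CiSCs than in MEFs. Efnb1, which helps to form boundaries between cell groups, read 81.9 and 75.1 CPM in CiSCs, 180 and 188 CPM in MSCs, and 27.6 and 28.6 CPM in MEFs. MSCs were highest, CiSCs between and MEFs lowest, with no overlap. Efnb1 gave a log2 fold change of 1.48 ± 0.12 (edgeR adjusted p = 0.000217) in CiSCs against MEFs, −1.23 ± 0.12 (edgeR adjusted p = 0.000366) in CiSCs against MSCs, and 2.71 ± 0.13 (edgeR adjusted p = 2.72e-05) in MSCs against MEFs. Efnb2, a marker of arterial endothelium, was at 116 and 115 CPM in CiSCs, 85.4 and 84.1 CPM in MSCs, and 58.6 and 44.5 CPM in MEFs. CiSCs were highest and MEFs lowest. The log2 fold change of Efnb2 was 1.16 ± 0.16 (edgeR adjusted p = 0.00189) in CiSCs against MEFs and 0.44 ± 0.16 (edgeR adjusted p = 0.0631) against MSCs. Without either MEF library the Efnb2 value against MSCs was 0.45. In MSCs against MEFs it was 0.72 ± 0.16 (edgeR adjusted p = 0.0125), and the call ended without either MSC library (0.087 and 0.0815). Efnb3, known from the midline of the spinal cord, was low at 1.81 and 1.54 CPM in CiSCs, 0.478 and 0.380 CPM in MSCs, and 0.506 and 0.728 CPM in MEFs. Its CiSC libraries lay above the other 4, by 1.44 ± 0.39 (edgeR adjusted p = 0.0262) on the log2 scale against MEFs and 1.95 ± 0.41 (edgeR adjusted p = 0.00918) against MSCs. Efnb3 lost the call against MEFs without any one library other than the second MEF library (0.066 to 0.162), and the call against MSCs without the first CiSC library (0.0723) or either MSC library (0.0626 and 0.0895).

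EphA receptors are the tyrosine kinases that bind ephrin-A ligands. Of the 6 tested, 2 were lower in CiSCs than in MEFs (Epha1 and Epha3), none was higher, and relative to MSCs 4 were higher (Epha3, Epha4, Epha6 and Epha7) and 1 was lower (Epha2). In MSCs, 4 of 6 were lower than in MEFs and Epha2 was higher. Epha1, found mainly in epithelia, read 0.412 and 0.876 CPM in CiSCs, 1.25 and 1.28 CPM in MSCs, and 10.7 and 11.7 CPM in MEFs. CiSCs and MSCs lay far below MEFs, with log2 fold changes of −4.08 ± 0.35 (edgeR adjusted p = 0.000227) in CiSCs and −3.15 ± 0.32 (edgeR adjusted p = 0.000495) in MSCs. Exons of Epha1 overlap the gene Zyx over 6.97% of their length, so some of the reads may belong to Zyx. Without the second CiSC library the Epha1 values in CiSCs were −4.72 against MEFs and −1.54 against MSCs. Epha3, a receptor with a high affinity for Efna5, was at 17.9 and 19.7 CPM in CiSCs, 1.12 and 0.815 CPM in MSCs, and 130 and 62.2 CPM in MEFs. The groups were separate, with MEFs highest and MSCs near 1 CPM. Epha3 differed by −2.35 ± 0.35 (edgeR adjusted p = 0.00246) in CiSCs against MEFs, 4.27 ± 0.44 (edgeR adjusted p = 0.000448) in CiSCs against MSCs, and −6.62 ± 0.46 (edgeR adjusted p = 0.000105) in MSCs against MEFs, on the log2 scale. Without the first MEF library the first and the last of these were −1.75 and −6.03.

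Epha4, a receptor that binds ligands of both ephrin classes, read 11.5 and 13.4 CPM in CiSCs, 2.36 and 2.50 CPM in MSCs, and 42.1 and 15.3 CPM in MEFs. CiSCs lay above MSCs, by 2.36 ± 0.49 (edgeR adjusted p = 0.00907) on the log2 scale, and below both MEF libraries without passing the threshold (−1.20 ± 0.44, edgeR adjusted p = 0.068). The difference from MEFs was −0.325 without the first MEF library and −1.76 without the second. Without either MSC library the call against MSCs was lost. In MSCs against MEFs Epha4 was at −3.57 ± 0.50 (edgeR adjusted p = 0.00192), which became −2.69 without the first MEF library. Epha7, a receptor of the early nervous system, read 13.1 and 14.8 CPM in CiSCs, 0.106 and 0.273 CPM in MSCs, and 9.56 and 6.45 CPM in MEFs. It was well above 1 CPM in CiSCs and MEFs and near the limit of detection in MSCs, where 7 reads were counted. Epha7 gave 6.16 ± 0.42 (edgeR adjusted p = 7.92e-05) in CiSCs against MSCs and −5.36 ± 0.42 (edgeR adjusted p = 0.000173) in MSCs against MEFs, and without the second MSC library these were 6.95 and −6.15. The difference between CiSCs and MEFs was 0.80 ± 0.27 (edgeR adjusted p = 0.0574), and 1.085 without the first MEF library. Epha2, the EphA receptor best known from epithelia and tumours, read 29.7 and 29.9 CPM in CiSCs, 85.9 and 121 CPM in MSCs, and 36.2 and 24.8 CPM in MEFs. MSCs were highest and the other 2 groups overlapped. The Epha2 log2 fold change was −1.80 ± 0.24 (edgeR adjusted p = 0.00145) in CiSCs against MSCs, 1.76 ± 0.24 (edgeR adjusted p = 0.0018) in MSCs against MEFs, and −0.032 ± 0.24 (edgeR adjusted p = 0.93) in CiSCs against MEFs. Epha6 was low and even, at 3.03 and 3.08 CPM in CiSCs, 1.66 and 1.71 CPM in MSCs, and 2.14 and 2.02 CPM in MEFs, and its call in CiSCs against MSCs (0.87 ± 0.26, edgeR adjusted p = 0.0354) ended without any one CiSC or MSC library (0.146 to 0.166). Epha5, untested, had 17 reads in CiSCs, 0 in MSCs and 35 in MEFs, with 1.37 and 0.416 CPM in the MEF libraries. With 3 reads standing for 0 over MSCs, its mean CPM was 4.99-fold higher in CiSCs and 11.1-fold higher in MEFs than in MSCs. These ratios leave out the error of the higher group and are no lower limits. Epha8 had 0 reads in CiSCs, 1 in MSCs and 0 in MEFs.

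**Figure D4:**
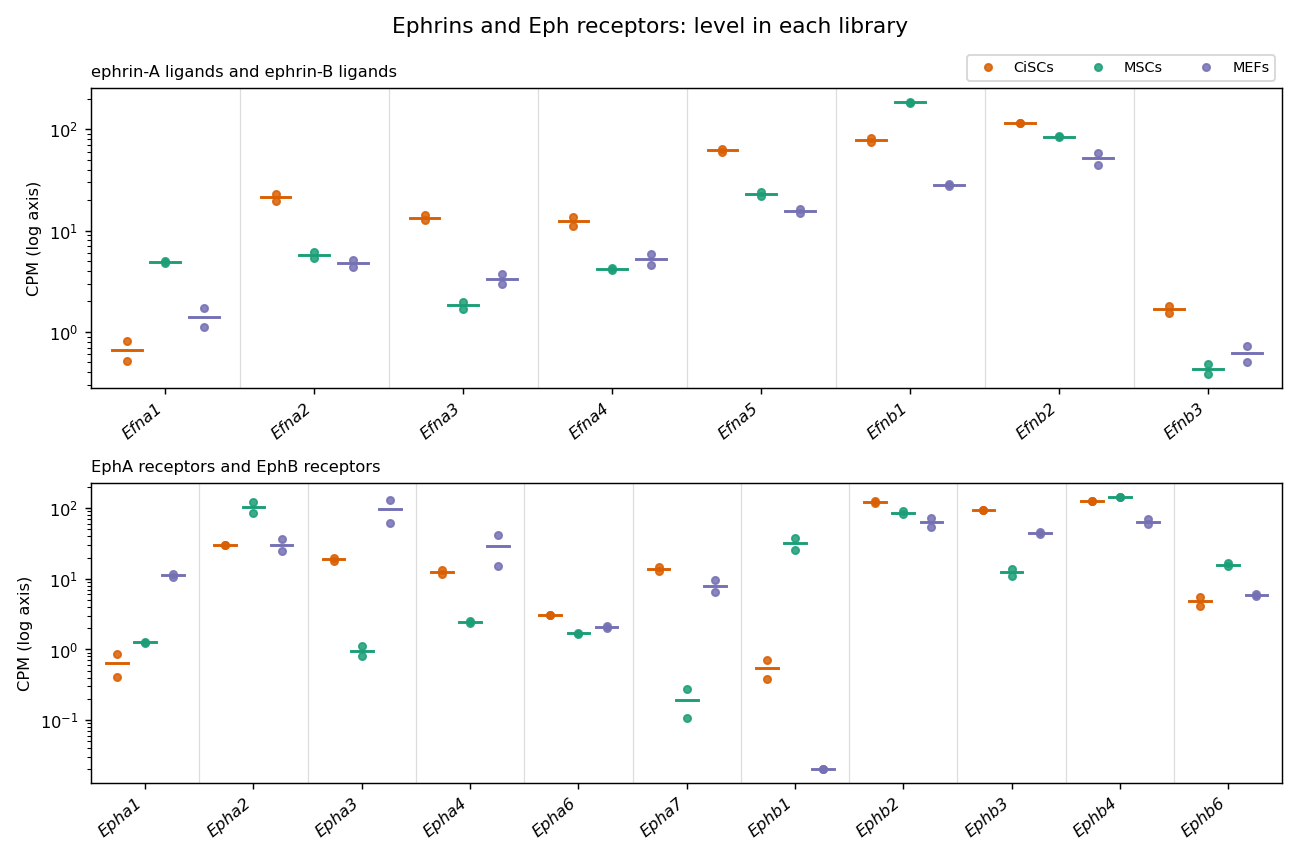
CPM of each tested ephrin and Eph receptor gene on a log axis, with a point for each library of CiSCs, MSCs and MEFs and a bar at each group's mean; 0 CPM is drawn at 0.02. CiSCs lie highest for Efna2, Efna3, Efna4 and Efna5, MSCs for Ephb1, and MEFs for Epha1, Epha3 and Epha4.

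EphB receptors bind ephrin-B ligands, and 4 of the 5 were higher in CiSCs than in MEFs. Ephb3, with known roles in sorting cells of the gut epithelium, read 94.1 and 95.8 CPM in CiSCs, 13.6 and 11.0 CPM in MSCs, and 42.9 and 46.5 CPM in MEFs. CiSCs were highest and MSCs lowest, with no overlap. Ephb3 differed by 1.09 ± 0.15 (edgeR adjusted p = 0.00185) in CiSCs against MEFs, 2.95 ± 0.16 (edgeR adjusted p = 3.56e-05) in CiSCs against MSCs and −1.86 ± 0.16 (edgeR adjusted p = 0.000219) in MSCs against MEFs, as log2 fold changes. Ephb1 had the largest differences of the family, at 0.382 and 0.702 CPM in CiSCs, 25.6 and 37.7 CPM in MSCs, and 0 and 0 CPM in MEFs. MSCs lay above 25 CPM, CiSCs below 1 CPM and MEFs at 0 reads. With 3 reads standing for 0 over MEFs, the mean CPM of Ephb1 was 7.04-fold higher in CiSCs and 412-fold higher in MSCs than in MEFs. These ratios leave out the error of the higher group and are no lower limits, and 23 reads were counted in CiSCs. The log2 fold change of Ephb1 in CiSCs against MSCs was −5.85 ± 0.38, given without a p-value because Ephb1 passed the filter only through MSCs. Ephb4, the venous partner of Efnb2, read 125 and 127 CPM in CiSCs, 144 and 146 CPM in MSCs, and 70.0 and 58.8 CPM in MEFs, so that CiSCs and MSCs were both above MEFs. For Ephb4 the log2 fold change was 0.97 ± 0.13 (edgeR adjusted p = 0.00189) in CiSCs and 1.17 ± 0.13 (edgeR adjusted p = 0.000784) in MSCs, each against MEFs, and −0.21 ± 0.13 (edgeR adjusted p = 0.258) in CiSCs against MSCs. Ephb2, which shares ligands with Ephb3, stood at 120 and 128 CPM in CiSCs, 91.1 and 82.3 CPM in MSCs, and 71.9 and 53.6 CPM in MEFs. CiSCs were highest, by 0.98 ± 0.17 (edgeR adjusted p = 0.00503) on the log2 scale against MEFs. This call was lost without the second CiSC library (0.0518). Against MSCs, Ephb2 gave 0.52 ± 0.17 (edgeR adjusted p = 0.0501), and still 0.52 without either MEF library. In MSCs against MEFs, Ephb2 gave 0.47 ± 0.17 (edgeR adjusted p = 0.0689), and 0.66 without the first MEF library. Ephb6, a family member without kinase activity, was lower in CiSCs than in MSCs, at 4.15 and 5.52 CPM in CiSCs, 15.1 and 16.6 CPM in MSCs, and 6.17 and 5.72 CPM in MEFs. Its log2 fold change was −1.71 ± 0.21 (edgeR adjusted p = 0.000885) against MSCs and −0.30 ± 0.21 (edgeR adjusted p = 0.296) against MEFs.

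Class 3 semaphorins, the secreted ligands of the neuropilin and plexin receptors, were split, with 4 of 7 higher in CiSCs than in MEFs (Sema3a, Sema3b, Sema3c and Sema3d) and Sema3f lower. Relative to MSCs, Sema3a, Sema3c, Sema3e and Sema3f were higher in CiSCs and Sema3g was lower. Sema3a, the founding repellent of the class, read 175 and 160 CPM in CiSCs, 4.31 and 5.60 CPM in MSCs, and 73.3 and 40.7 CPM in MEFs. CiSCs were highest, MEFs in between and MSCs lowest, with no overlap. Sema3a differed by 1.55 ± 0.28 (edgeR adjusted p = 0.0059) in CiSCs against MEFs, 5.08 ± 0.34 (edgeR adjusted p = 7.38e-05) in CiSCs against MSCs and −3.52 ± 0.32 (edgeR adjusted p = 0.000302) in MSCs against MEFs, as log2 fold changes. Sema3d lies next to Sema3a on chromosome 5 with no coding gene between them and was at 27.0 and 32.2 CPM in CiSCs, 29.7 and 33.4 CPM in MSCs, and 2.07 and 1.20 CPM in MEFs. CiSCs and MSCs overlapped, and both were above MEFs. The log2 fold change of Sema3d was 4.17 ± 0.27 (edgeR adjusted p = 7.62e-05) in CiSCs and 4.26 ± 0.27 (edgeR adjusted p = 7.26e-05) in MSCs, each against MEFs, and −0.090 ± 0.22 (edgeR adjusted p = 0.775) in CiSCs against MSCs. Sema3c, known for its part in the outflow tract of the heart, read 75.0 and 74.6 CPM in CiSCs, 14.2 and 16.0 CPM in MSCs, and 13.6 and 4.31 CPM in MEFs. CiSCs lay above the 4 other libraries, and the 2 MEF libraries differed widely. Sema3c gave 3.06 ± 0.47 (edgeR adjusted p = 0.00288) in CiSCs against MEFs, with 4.09 without the first and 2.46 without the second MEF library. Against MSCs it gave 2.31 ± 0.45 (edgeR adjusted p = 0.007), a call lost without either MSC library. In MSCs against MEFs, Sema3c gave 0.76 ± 0.46 (edgeR adjusted p = 0.223), and 1.77 without the first MEF library.

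Sema3f, which binds mainly Nrp2, was at 47.9 and 52.0 CPM in CiSCs, 12.7 and 12.8 CPM in MSCs, and 99.4 and 93.9 CPM in MEFs. MEFs were highest and MSCs lowest. Sema3f had log2 fold changes of −0.95 ± 0.13 (edgeR adjusted p = 0.0016) in CiSCs against MEFs, 1.97 ± 0.13 (edgeR adjusted p = 7.76e-05) in CiSCs against MSCs and −2.93 ± 0.14 (edgeR adjusted p = 2.58e-05) in MSCs against MEFs. Sema3e, which binds Plxnd1 without a neuropilin, was at 20.0 and 27.3 CPM in CiSCs, 4.01 and 3.79 CPM in MSCs, and 15.1 and 3.28 CPM in MEFs. CiSCs were above the other groups, while one MEF library lay near them and the other near MSCs. Sema3e gave 2.59 ± 0.65 (edgeR adjusted p = 0.0183) in CiSCs against MSCs, which was lost without the second CiSC library (0.0801) or either MSC library (0.112 and 0.118). Against MEFs it gave 1.36 ± 0.60 (edgeR adjusted p = 0.118), with 2.83 without the first and 0.65 without the second MEF library. In MSCs against MEFs, Sema3e was at 0.23 without the first MEF library and −1.94 without the second. Sema3b, a ligand studied as a tumour suppressor, read 5.68 and 4.40 CPM in CiSCs, 5.53 and 4.78 CPM in MSCs, and 3.19 and 1.87 CPM in MEFs. CiSCs and MSCs overlapped above MEFs, at 0.99 ± 0.32 (edgeR adjusted p = 0.0469) and 1.02 ± 0.32 (edgeR adjusted p = 0.0413) against MEFs, and both calls were lost without any one library other than the first MEF library (0.0851 to 0.23 and 0.0718 to 0.193). Sema3g, a semaphorin of arterial endothelium, was at 0.0477 and 0.140 CPM in CiSCs, 4.25 and 3.69 CPM in MSCs, and 0.405 and 0.156 CPM in MEFs. MSCs were far above the rest, and Sema3g passed the filter for low counts only through them, so no p-value is given here. Its log2 fold changes were −5.30 ± 0.59 in CiSCs against MSCs and 3.79 ± 0.51 in MSCs against MEFs. Without the second CiSC library the first of these was −6.20, and without the first MEF library the second was 4.58. Of 12 endothelial markers, 8 had their highest mean in MSCs, among them Cdh5 at 0.0473 CPM in CiSCs, 56.9 in MSCs and 0.614 in MEFs. Emcn and Egfl7 were highest in CiSCs and Flt1 and Vwf in MEFs, and the part of these markers in the Sema3g values was not tested.

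Neuropilins are the co-receptors that hold class 3 semaphorins and also vascular endothelial growth factor. Nrp2 was lower in CiSCs than in both other groups, and Nrp1 was not called in any comparison. Nrp2, which binds Sema3f, read 41.5 and 49.9 CPM in CiSCs, 288 and 266 CPM in MSCs, and 420 and 261 CPM in MEFs. MSCs and MEFs overlapped and CiSCs lay far below. Nrp2 gave −2.90 ± 0.25 (edgeR adjusted p = 0.000268) in CiSCs against MEFs and −2.60 ± 0.25 (edgeR adjusted p = 0.000326) in CiSCs against MSCs on the log2 scale. Between MSCs and MEFs it gave −0.30 ± 0.24 (edgeR adjusted p = 0.35), with 0.056 without the first MEF library and −0.60 without the second. Nrp1, which binds Sema3a, was at 170 and 190 CPM in CiSCs, 242 and 214 CPM in MSCs, and 208 and 115 CPM in MEFs. The CiSC range lay within that of MEFs. The log2 fold change of Nrp1 was 0.16 ± 0.27 (edgeR adjusted p = 0.667) in CiSCs against MEFs, −0.34 ± 0.27 (edgeR adjusted p = 0.368) in CiSCs against MSCs and 0.50 ± 0.27 (edgeR adjusted p = 0.187) in MSCs against MEFs. Without the first MEF library these values were 0.63, −0.33 and 0.96, and without the second the difference between CiSCs and MEFs was −0.21.

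Plexins are the large receptors that carry semaphorin signals into the cell through an intracellular domain acting on small GTPases. Of 9, 5 were lower in CiSCs than in MEFs (Plxna2, Plxna4, Plxnb3, Plxnc1 and Plxnd1) and 2 higher (Plxna3 and Plxnb1), while relative to MSCs 5 were lower and 3 higher. Plxnc1, the receptor of Sema7a, read 3.34 and 3.46 CPM in CiSCs, 55.2 and 69.9 CPM in MSCs, and 59.5 and 62.7 CPM in MEFs. MSCs and MEFs overlapped, and CiSCs were near 3 CPM. Plxnc1 differed by −4.17 ± 0.18 (edgeR adjusted p = 2.03e-05) in CiSCs against MEFs and −4.20 ± 0.18 (edgeR adjusted p = 1.79e-05) in CiSCs against MSCs, as log2 fold changes, and by 0.034 ± 0.15 (edgeR adjusted p = 0.878) in MSCs against MEFs. Plxnd1, the receptor of Sema3e, read 46.3 and 45.8 CPM in CiSCs, 172 and 174 CPM in MSCs, and 133 and 151 CPM in MEFs. CiSCs were lowest and MSCs highest. For Plxnd1 the log2 fold change was −1.62 ± 0.13 (edgeR adjusted p = 0.000163) against MEFs and −1.91 ± 0.13 (edgeR adjusted p = 7.36e-05) against MSCs in CiSCs. In MSCs against MEFs it was 0.29 ± 0.12 (edgeR adjusted p = 0.105), and 0.37 without the second MEF library. The sum of the leukocyte markers was likewise lowest in CiSCs, and its part in the Plxnc1, Plxnd1 and Nrp2 values was not tested. Plxna4, a co-receptor for Sema3a, was at 0.382 and 0.561 CPM in CiSCs, 14.7 and 19.7 CPM in MSCs, and 3.49 and 2.08 CPM in MEFs. CiSCs were below 1 CPM, MEFs between and MSCs highest. Plxna4 gave −2.55 ± 0.40 (edgeR adjusted p = 0.00327) in CiSCs against MEFs, −5.17 ± 0.39 (edgeR adjusted p = 0.000116) in CiSCs against MSCs and 2.62 ± 0.32 (edgeR adjusted p = 0.00102) in MSCs against MEFs. Plxnb3, a receptor of Sema5a, had 6 reads in one CiSC library and 0 in the other, with 0.286 and 0 CPM in CiSCs, 9.41 and 13.6 CPM in MSCs, and 1.26 and 1.66 CPM in MEFs. MSCs were highest and CiSCs lowest. Its log2 fold change was −3.31 ± 0.79 (edgeR adjusted p = 0.0167) in CiSCs against MEFs and −6.28 ± 0.71 (edgeR adjusted p = 0.000638) against MSCs, and the CiSC library left out decided its size. Against MEFs it was −7.86 without the first and −2.36 without the second CiSC library, and against MSCs −10.80 and −5.30. The values without the first CiSC library are fitted against 0 reads and are no bound. In MSCs against MEFs Plxnb3 gave 2.97 ± 0.53 (edgeR adjusted p = 0.00512), lost without the second MSC library (0.0574).

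Plxnb1, the receptor of Sema4d, rose in CiSCs and more so in MSCs relative to MEFs, at 11.7 and 11.8 CPM in CiSCs, 35.7 and 42.4 CPM in MSCs, and 5.36 and 4.0 CPM in MEFs. The 3 groups did not overlap. Plxnb1 gave a log2 fold change of 1.33 ± 0.20 (edgeR adjusted p = 0.0025) in CiSCs against MEFs, −1.73 ± 0.19 (edgeR adjusted p = 0.000526) in CiSCs against MSCs and 3.06 ± 0.20 (edgeR adjusted p = 8.44e-05) in MSCs against MEFs. Plxna3, which acts with Nrp2 for Sema3f, read 46.7 and 52.0 CPM in CiSCs, 7.39 and 8.09 CPM in MSCs, and 31.4 and 23.1 CPM in MEFs. CiSCs were highest and MSCs lowest. Plxna3 differed by 0.86 ± 0.18 (edgeR adjusted p = 0.0103) in CiSCs against MEFs, a call lost without the first or the second CiSC library (0.0528 and 0.0946), and by 2.67 ± 0.19 (edgeR adjusted p = 0.000103) in CiSCs against MSCs. Plxna2, a receptor for class 6 semaphorins among others, was at 7.68 and 6.22 CPM in CiSCs, 9.68 and 9.18 CPM in MSCs, and 28.6 and 22.5 CPM in MEFs. MEFs were above the other groups, with log2 fold changes of −1.88 ± 0.20 (edgeR adjusted p = 0.000605) in CiSCs against MEFs and −1.44 ± 0.20 (edgeR adjusted p = 0.00169) in MSCs against MEFs. Against MSCs, Plxna2 gave −0.44 ± 0.20 (edgeR adjusted p = 0.125), with −0.43 without the first and −0.44 without the second MEF library. Plxna1, the most abundant class A plexin gene per exon length in CiSCs, read 299 and 333 CPM in CiSCs, 212 and 211 CPM in MSCs, and 356 and 324 CPM in MEFs. CiSCs and MEFs overlapped above MSCs. The calls of Plxna1, 0.58 ± 0.13 (edgeR adjusted p = 0.0119) in CiSCs against MSCs and −0.68 ± 0.13 (edgeR adjusted p = 0.00649) in MSCs against MEFs, ended, the first without any one CiSC or MSC library (0.0546 to 0.118) and the second without either MSC library (0.0741 and 0.0749). Exons of Plxna1 overlap another gene over 10.7% of their length. Plxnb2, a receptor of class 4 semaphorins, was the highest member per exon length in CiSCs, at 594 and 659 CPM in CiSCs, 467 and 477 CPM in MSCs, and 543 and 503 CPM in MEFs. CiSCs were called above MSCs (0.41 ± 0.13, edgeR adjusted p = 0.0453), a call that ended without any one CiSC or MSC library (0.121 to 0.276).

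**Figure D5:**
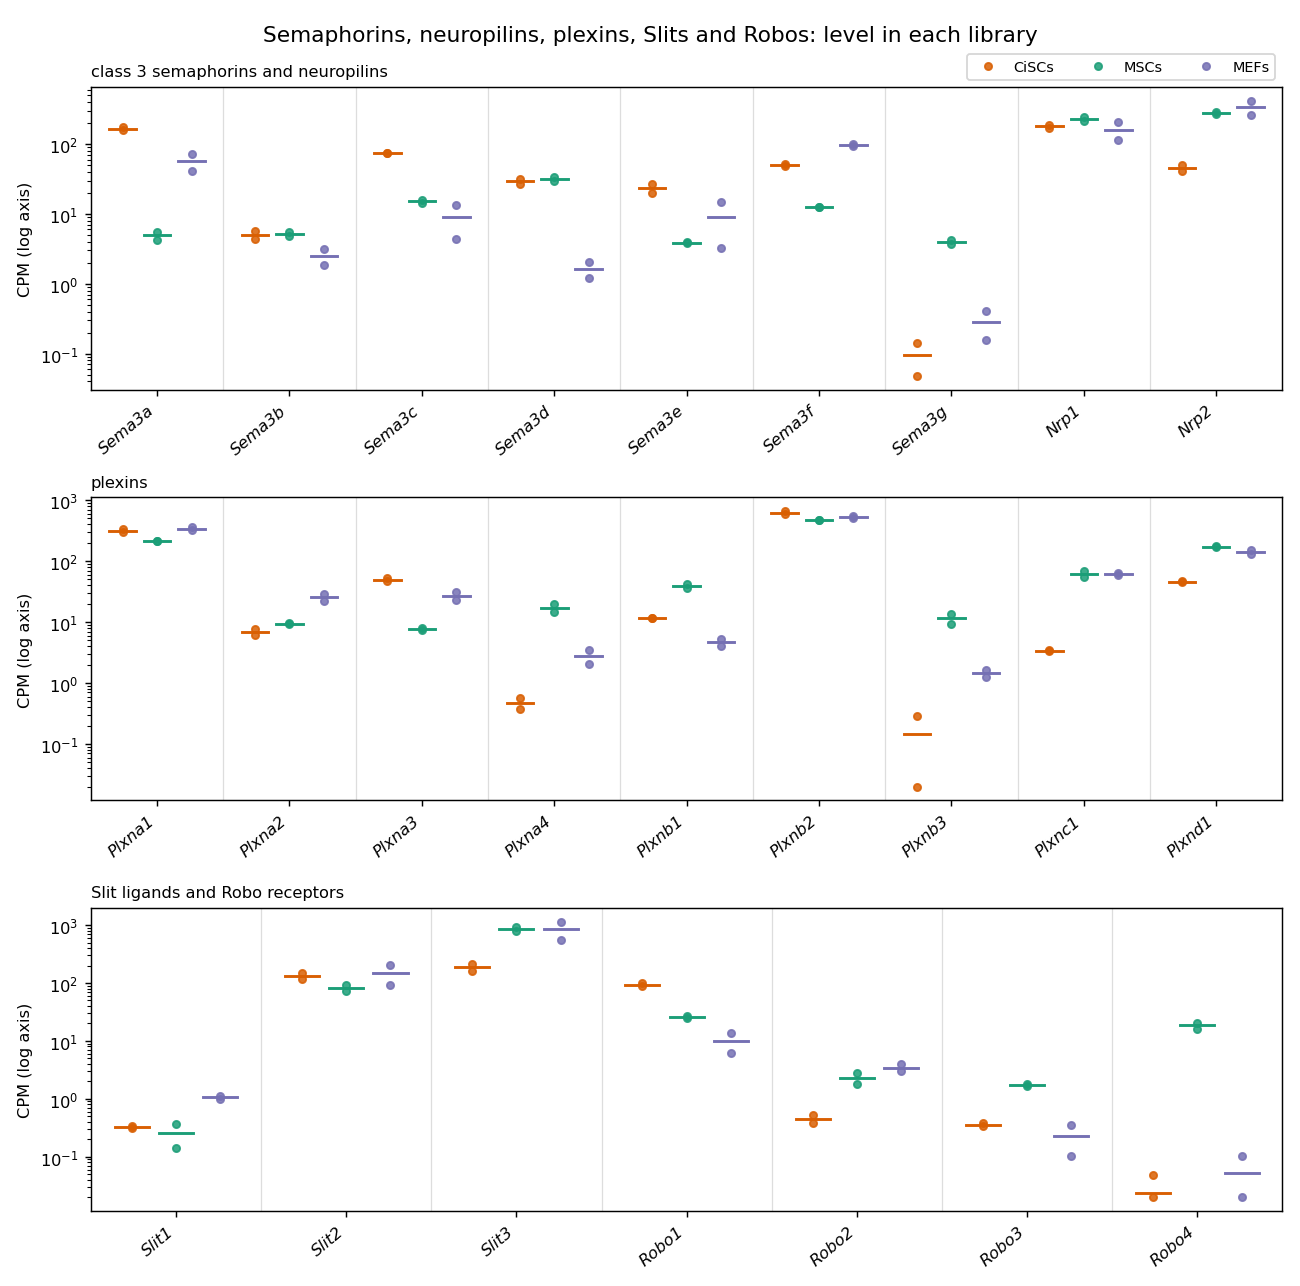
CPM of each class 3 semaphorin, neuropilin, plexin, Slit and Robo gene on a log axis, with a point for each library of CiSCs, MSCs and MEFs and a bar at each group's mean; 0 CPM is drawn at 0.02. CiSCs lie highest for Sema3a, Sema3c and Robo1 and lowest for Plxnc1, Plxnd1, Nrp2 and Slit3, and Robo4 lies near 0 outside MSCs.

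Slit genes encode the secreted ligands of Robo receptors. Slit3 was lower in CiSCs than in both other groups, Slit1 was lower than in MEFs, and Slit2 was not called. Slit3, a Slit made by many mesenchymal cells, read 161 and 216 CPM in CiSCs, 921 and 800 CPM in MSCs, and 1143 and 554 CPM in MEFs. MSCs lay within the MEF range, and CiSCs below both. Slit3 differed by −2.17 ± 0.35 (edgeR adjusted p = 0.0038) in CiSCs against MEFs, −2.19 ± 0.35 (edgeR adjusted p = 0.00314) in CiSCs against MSCs and 0.021 ± 0.34 (edgeR adjusted p = 0.967) in MSCs against MEFs, as log2 fold changes. Without the first MEF library the first value was −1.58 and the last 0.60, and without the second the last was −0.41. Slit2, the main midline repellent, was at 119 and 146 CPM in CiSCs, 91.5 and 72.3 CPM in MSCs, and 203 and 91.1 CPM in MEFs. CiSCs lay within the MEF range and above MSCs. The Slit2 difference between CiSCs and MEFs, −0.15 ± 0.36 (edgeR adjusted p = 0.765), changed its direction with the MEF library left out. It was 0.52 without the first and −0.62 without the second. Against MSCs it was 0.69 ± 0.36 (edgeR adjusted p = 0.173), and 0.70 without either MEF library. In MSCs against MEFs, Slit2 gave −0.84 ± 0.36 (edgeR adjusted p = 0.106), and −1.31 without the second MEF library. Slit1, found mainly in the brain, was near 1 CPM in MEFs and below that elsewhere, at 0.315 and 0.341 CPM in CiSCs, 0.369 and 0.139 CPM in MSCs, and 1.00 and 1.12 CPM in MEFs. Slit1 passed the filter for low counts only through MEFs, so no p-value is given here. Its log2 fold change was −1.69 ± 0.48 in CiSCs and −1.98 ± 0.51 in MSCs, each against MEFs. Both calls were lost without any one library other than the first MEF library. For MSCs the value was −2.68 without the first MSC library.

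Robo genes encode a receptor family that includes the Slit receptors. Robo1 was higher in CiSCs than in both other groups, while Robo2, its neighbour on chromosome 16 with no coding gene between them, was lower than in both. Their promoters are shown because these neighbours changed in opposite directions. The RefSeq window of Robo1 is at chr16:72662899-72663198 on the plus strand and that of Robo2 at chr16:75447244-75447543 on the minus strand (GRCm38.p6), the most upstream of 3 listed starts for Robo2.
Robo1: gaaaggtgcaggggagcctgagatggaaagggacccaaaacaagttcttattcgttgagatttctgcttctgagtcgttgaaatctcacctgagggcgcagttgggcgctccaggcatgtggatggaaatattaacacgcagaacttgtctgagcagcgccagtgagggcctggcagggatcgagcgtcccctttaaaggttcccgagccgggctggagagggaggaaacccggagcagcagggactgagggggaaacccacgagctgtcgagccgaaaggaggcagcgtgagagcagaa
Robo2: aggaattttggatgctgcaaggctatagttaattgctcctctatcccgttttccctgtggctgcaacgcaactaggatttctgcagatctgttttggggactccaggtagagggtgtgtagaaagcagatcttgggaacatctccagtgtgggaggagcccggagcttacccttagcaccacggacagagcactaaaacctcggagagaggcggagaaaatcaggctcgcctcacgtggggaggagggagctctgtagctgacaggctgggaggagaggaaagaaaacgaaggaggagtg
Neither window holds the GC box or the CCAAT box, so no letters are in capitals. Robo1 read 88.6 and 99.4 CPM in CiSCs, 27.3 and 25.1 CPM in MSCs, and 13.5 and 6.29 CPM in MEFs. The 3 groups were separate in the order CiSCs, MSCs, MEFs. Robo1 differed by 3.25 ± 0.34 (edgeR adjusted p = 0.000597) in CiSCs against MEFs, 1.84 ± 0.32 (edgeR adjusted p = 0.00428) in CiSCs against MSCs and 1.40 ± 0.33 (edgeR adjusted p = 0.0152) in MSCs against MEFs, as log2 fold changes. Without the first MEF library the first and last of these were 3.87 and 2.02. Without the second MSC library the call of CiSCs against MSCs was lost (0.0506), and without either MSC library that of MSCs against MEFs (0.0902 and 0.0708). For Robo2 the values were 0.382 and 0.515 CPM in CiSCs, 2.77 and 1.79 CPM in MSCs, and 3.94 and 2.96 CPM in MEFs. CiSCs lay below the 4 other libraries. Robo2 gave −2.93 ± 0.40 (edgeR adjusted p = 0.00181) in CiSCs against MEFs and −2.33 ± 0.41 (edgeR adjusted p = 0.0043) in CiSCs against MSCs.

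Robo4, the Robo of endothelial cells, was near 0 outside MSCs, at 0.0477 and 0 CPM in CiSCs, 16.3 and 20.5 CPM in MSCs, and 0 and 0.104 CPM in MEFs. There was 1 read in CiSCs, 685 in MSCs and 2 in MEFs. The ratio of MSC to CiSC CPM was 779 (exact 95% counting interval 139 to 30820), and that of MSCs to MEFs was 359 (99.0 to 2970). Endothelial markers were mixed, as given beside Sema3g. Cdh5 had 2 reads in CiSCs, 2118 in MSCs and 24 in MEFs, while Flt1 averaged 11.7 CPM in CiSCs, 2.53 in MSCs and 127 in MEFs, and their part in the Robo4 values was not tested. Robo3, which modulates Slit signals in axons that cross the midline, lies next to Robo4 on chromosome 9 with no coding gene between them, and read 0.334 and 0.374 CPM in CiSCs, 1.65 and 1.79 CPM in MSCs, and 0.354 and 0.104 CPM in MEFs. MSCs were highest and the other groups overlapped. Robo3 was called at −2.26 ± 0.51 in CiSCs against MSCs and at 2.87 ± 0.55 in MSCs against MEFs on the log2 scale. It passed the filter only through MSCs, so no p-value is given here. The first call was lost without any one CiSC or MSC library and the second without the second MSC library. The second value was 3.94 and 2.26 without the first and the second MEF library.

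With all 3 groups side by side, 16 of the 44 tested members had both CiSC libraries above the 4 others, a pattern that 22.9% of all genes tested showed. They were 4 ephrin-A genes, Efnb2 and Efnb3, Epha6 and Epha7, Ephb2 and Ephb3, Sema3a, Sema3c and Sema3e, Plxna3 and Plxnb2, and Robo1. In 12 members both CiSC libraries lay below the 4 others (22.7% of all genes), and these held 5 plexins with Efna1, Epha1, Ephb6, Nrp2, Robo2, Sema3g and Slit3. Both MSC libraries lay highest for 14 members (24.3%) and lowest for 13 (19.4%), the second group with Efna3, Efna4, Epha3, Epha4, Epha7, Ephb3, Sema3a and Sema3f among them. Both MEF libraries lay highest for 7 members (21.6%) and lowest for 12 (20.0%). Ligand and receptor genes known to pair did not all lie on the same side of the other groups in CiSCs. Sema3e lay above the other groups, though not called against MEFs (edgeR adjusted p = 0.118), and its receptor Plxnd1 lay below them. Robo1 lay above and Slit3 below the other groups, and Efnb2 and Ephb4 were both above MEFs.

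To set levels of different genes side by side, CPM were divided by the exon length in kilobases. In CiSCs the highest members were Plxnb2 at 95.4 CPM per kilobase, Nrp1 at 50.1, Slit3 at 36.1, Plxna1 at 35.0, Ephb4 at 28.8 and Sema3a at 26.9. In MSCs they were Slit3 at 165 CPM per kilobase, Plxnb2 at 71.9, Nrp1 at 63.3 and Efnb1 at 56.3. In MEFs they were Slit3 at 162 CPM per kilobase, Plxnb2 at 79.6, Nrp1 at 44.9 and Plxna1 at 37.6. Slit3, Plxnb2 and Nrp1 were thus the 3 highest members in each group, with Slit3 below both others in CiSCs and above them in MSCs and MEFs. Slit3 and Plxna1 in CiSCs lay closer together than the 2 CiSC libraries of Slit3 did.

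Genes around these families moved in both directions as well. Of 13 semaphorins outside class 3, 5 were higher and 5 lower in CiSCs than in MEFs, 3 higher and 7 lower in CiSCs than in MSCs, and 6 higher and 4 lower in MSCs than in MEFs, with median log2 fold changes of 0.20, −2.61 and 0.64 that can be read beside those of all genes above. Of all genes tested, 19.6% were higher and 21.3% lower in CiSCs than in MEFs. The shares were 17.7% and 25.1% in CiSCs against MSCs, and 22.5% and 20.0% in MSCs against MEFs. Sema4d, a ligand of Plxnb1 on lymphocytes and other cells, read 0.832 and 1.34 CPM in CiSCs, 11.2 and 8.58 CPM in MSCs, and 135 and 140 CPM in MEFs. MEFs were far above the rest, with a log2 fold change of −6.97 ± 0.28 (edgeR adjusted p = 1.71e-05) in CiSCs against MEFs and −3.80 ± 0.23 (edgeR adjusted p = 5.73e-05) in MSCs against MEFs. The leukocyte markers had the same order of groups, and their part was not tested. Sema7a, a lipid-anchored ligand of Plxnc1, was at 4.01 and 4.02 CPM in CiSCs, 96.3 and 142 CPM in MSCs, and 2.83 and 4.26 CPM in MEFs. MSCs stood alone at the top, with log2 fold changes of −4.89 ± 0.29 (edgeR adjusted p = 4.59e-05) in CiSCs against MSCs and 5.07 ± 0.29 (edgeR adjusted p = 5.03e-05) in MSCs against MEFs. Sema4a, which acts in immune cells and vessels, fell in CiSCs relative to both, at 1.04 and 1.08 CPM in CiSCs, 33.6 and 36.9 CPM in MSCs, and 14.1 and 15.5 CPM in MEFs (−3.79 ± 0.18 against MEFs and −5.04 ± 0.19 against MSCs, edgeR adjusted p = 2.63e-05 and 1.16e-05). By contrast, Sema4g was higher in CiSCs than in MEFs (2.19 ± 0.20, edgeR adjusted p = 0.000288) and Sema6a higher than in MSCs (2.13 ± 0.19, edgeR adjusted p = 0.000232).

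Of 17 genes of the netrin and repulsive guidance families, 13 were tested, and 9 were higher and 2 lower in CiSCs than in MEFs, 6 higher and 2 lower in CiSCs than in MSCs, and 6 higher and 4 lower in MSCs than in MEFs, with medians of 1.48, 0.58 and 0.84. The shares of all genes called higher and lower were 19.6% and 21.3% in the first comparison. In the second they were 17.7% and 25.1%, and in the third 22.5% and 20.0%. Ntn1, a secreted guidance cue of the midline, read 182 and 185 CPM in CiSCs, 3.72 and 3.58 CPM in MSCs, and 16.4 and 14.7 CPM in MEFs. CiSCs were far above both groups, by 3.56 ± 0.14 (edgeR adjusted p = 1.71e-05) against MEFs and 5.65 ± 0.16 (edgeR adjusted p = 7.98e-06) against MSCs on the log2 scale. Draxin, a secreted repulsive cue that binds the netrin receptor Dcc, was at 10.7 and 11.1 CPM in CiSCs, 10.4 and 9.89 CPM in MSCs, and 0.0506 and 0.0567 CPM in MEFs. CiSCs and MSCs lay close together and MEFs were below 0.1 CPM. There were 462 reads in CiSCs, 377 in MSCs and 2 in MEFs, so the ratios of CPM are given with counting error only, 213 for CiSCs to MEFs (exact 95% interval 58.6 to 1763) and 198 for MSCs to MEFs (54.3 to 1637). Neo1, a receptor of netrins and repulsive guidance molecules, read 171 and 190 CPM in CiSCs, 126 and 125 CPM in MSCs, and 63.2 and 41.7 CPM in MEFs, and gave 1.78 ± 0.21 (edgeR adjusted p = 0.000949) in CiSCs against MEFs. Ntn4 (−4.36 ± 0.25, edgeR adjusted p = 4.43e-05) and Unc5b (−2.01 ± 0.24, edgeR adjusted p = 0.000859) were lower in CiSCs than in MSCs. Unc5b was also lower than in MEFs (edgeR adjusted p = 0.0103).

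Among signalling genes downstream, the Slit and Robo list (20 genes) had 6 higher and 4 lower in CiSCs than in MEFs, 6 higher and 5 lower in CiSCs than in MSCs, and 9 higher and 2 lower in MSCs than in MEFs, with medians of 0.275, 0.23 and 0.58. For this list and those below, the shares of all genes called higher and lower were 19.6% and 21.3% in CiSCs against MEFs. They were 17.7% and 25.1% in CiSCs against MSCs, and 22.5% and 20.0% in MSCs against MEFs. Srgap3, whose protein binds Robo receptors, read 171 and 180 CPM in CiSCs, 33.2 and 33.0 CPM in MSCs, and 11.1 and 7.52 CPM in MEFs. The 3 groups were separate in the order CiSCs, MSCs, MEFs, with 4.23 ± 0.21 (edgeR adjusted p = 3.12e-05) in CiSCs against MEFs. Srgap1, of the same family, stood at 72.8 and 68.2 CPM in CiSCs, 48.2 and 47.8 CPM in MSCs, and 11.1 and 6.24 CPM in MEFs, with 3.02 ± 0.27 (edgeR adjusted p = 0.000276) in that comparison. Other genes of this list were lower in CiSCs. Among them were Sdc3 against MEFs (−1.11 ± 0.23, edgeR adjusted p = 0.0094), and Ndnf (−4.02 ± 0.32, edgeR adjusted p = 0.000139) and Sdc4 (−3.45 ± 0.15, edgeR adjusted p = 1.84e-05) against MSCs. The Eph and ephrin list (22 genes) had 7 higher and 3 lower in CiSCs than in MEFs, 9 higher and 6 lower in CiSCs than in MSCs, and 4 higher and 5 lower in MSCs than in MEFs, with medians of 0.32, 0.24 and 0.064. Nck2, an adaptor that binds active Eph receptors, was at 74.5 and 70.5 CPM in CiSCs, 18.2 and 22.1 CPM in MSCs, and 22.1 and 18.9 CPM in MEFs, and gave 1.82 ± 0.16 (edgeR adjusted p = 0.000264) in CiSCs against MEFs and 1.85 ± 0.16 (edgeR adjusted p = 0.000203) against MSCs. Sdcbp was lower in CiSCs than in MEFs (−0.81 ± 0.13, edgeR adjusted p = 0.00384) and Vav2 lower than in MSCs (−1.71 ± 0.15, edgeR adjusted p = 0.000195). In the plexin and semaphorin list (28 genes) 4 were higher and 12 lower in CiSCs than in MEFs, 4 higher and 9 lower in CiSCs than in MSCs, and 8 higher and 12 lower in MSCs than in MEFs, with medians of −0.40, −0.45 and −0.16. Trem2, a receptor of macrophages and microglia that associates with plexin A1, read 0.573 and 0.421 CPM in CiSCs, 87.8 and 94.0 CPM in MSCs, and 132 and 256 CPM in MEFs, in the order of the leukocyte markers, whose part was not tested. L1cam, an adhesion molecule that forms a complex with Nrp1, was at 0.244 and 0.311 CPM in CiSCs, 5.55 and 5.00 CPM in MSCs, and 52.9 and 79.7 CPM in MEFs. CiSCs were below 1 CPM and MEFs above 50 CPM, with −7.84 ± 0.34 (edgeR adjusted p = 1.93e-05) in CiSCs against MEFs and −4.18 ± 0.36 (edgeR adjusted p = 0.000196) in CiSCs against MSCs. L1cam too had the group order of the leukocyte markers, whose part was not tested. In the other direction, Mical3 was higher in CiSCs than in MEFs (1.69 ± 0.13, edgeR adjusted p = 0.000135). Flt1 was higher in CiSCs than in MSCs (2.20 ± 0.37, edgeR adjusted p = 0.00371).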

How the data were processed

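Total RNA of 6 libraries had been sequenced on the BGISEQ-500 platform. The authors deposited expected counts per gene (estimated counts that need not be whole) for each library. HISAT and mm9 are named per the submitters' processing notes, while the counting program, annotation, filters and strand are not given in the sources used here, so reads of overlapping genes cannot be told apart. The values could also be of a normalised kind that gives fractions. Counts were rounded, filtered with edgeR's filterByExpr, scaled by TMM and tested with edgeR 4.0.16 (R 4.3.3), a quasi-likelihood fit of all 3 groups with 3 residual degrees of freedom and Benjamini-Hochberg adjustment over 15272 genes. The value after ± is a standard error worked back from each log2 fold change and its quasi-likelihood F statistic. The fit was tested on simulated data. Alternatives were DESeq2 1.42.0, RLE size factors, library totals only, no filter, at least 5 CPM in 2 libraries, a test against a fold of 1.5, a stricter threshold of 0.01, only the 2 groups compared, a replicate block, and each library left out. The members and lists were chosen with earlier results of these data known. Values per library are given for members whose mean reached 1 CPM in any group. From the other lists, the genes named are among the 4 largest changes per direction that passed the test, reached a mean of 5 CPM and had groups without overlap. Exon lengths are from a GENCODE annotation of GRCm38 and were matched by symbol. One germ cell marker of the list, Acrv1, was not analysed here.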

Additional observations from a re-analysis of the deposited data

How the results depend on the processing

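With 2 libraries a group, leaving out single libraries changed many calls. All 3 groups share the spread of 1 fit, so a call could change when a library outside the comparison was left out. Slit1 lost its call in CiSCs against MEFs without the first MSC library, with log2 fold changes of −1.685 before and −1.683 after. Of 1690 pairs of a gene difference and an alternative setting, 1536 kept direction and call, 91 lost the call, 38 gained it and 25 changed direction. Counts of members called stayed within 1.5 times except when libraries were left out, with 10 to 22 members higher in CiSCs than in MSCs and 10 to 21 higher in MSCs than in MEFs. The upper ends came without an MEF library, where more of all genes were also called higher than as reported. The lower ends came without the second MSC library, where fewer of all genes were. These ranges therefore do not describe the members alone. Leaving out libraries gave log2 fold changes of −0.28 to 0.24 for Epha2, −0.21 to 0.63 for Nrp1, −0.00014 to 1.68 for Robo3, −3.19 to 2.25 for Robo4 and −0.62 to 0.52 for Slit2 in CiSCs against MEFs. In CiSCs against MSCs the ranges were −0.22 to 0.14 for Sema3b, −0.22 to 0.045 for Sema3d and −0.17 to 0.99 for Slit1, and in MSCs against MEFs −0.60 to 0.056 for Nrp2, −0.14 to 0.20 for Plxnc1, −1.94 to 0.23 for Sema3e and −0.41 to 0.60 for Slit3. None of these was called as reported. Scaling by library totals alone shifted the median of all genes by 0.12 in CiSCs against MEFs, 0.24 in CiSCs against MSCs and −0.11 in MSCs against MEFs. It turned Epha2 (0.091) and Plxna1 (0.018) in CiSCs against MEFs, Ephb4 (0.031), Sema3b (0.20) and Sema3d (0.15) in CiSCs against MSCs, and Plxnc1 (−0.080) and Slit3 (−0.094) in MSCs against MEFs. Slit3 in that comparison was −0.0068 with only the 2 groups fitted. Over all genes, the same scaling gave 4241 higher and 3211 lower in CiSCs than in MSCs, against 2697 and 3837 as reported, and 3058 higher and 3833 lower in MSCs than in MEFs, against 3436 and 3061. The labels do not say that replicate numbers pair the libraries, and deviations of same-numbered libraries correlated across genes at −0.365 between CiSCs and MEFs, −0.225 between CiSCs and MSCs and 0.204 between MSCs and MEFs. With a replicate block, 17 members were higher and 11 lower in CiSCs than in MEFs, 16 and 16 in CiSCs than in MSCs, and 17 and 12 in MSCs than in MEFs, where 17.3% and 18.5%, 15.1% and 23.0%, and 20.3% and 16.9% of all genes were called. Calls were lost for Efnb3 (edgeR adjusted p = 0.0621) and Slit1 (0.0676) against MEFs and for Epha6 (0.0805) and Plxnb2 (0.101) against MSCs. Other settings also ended calls. DESeq2 ended those of Efnb3 (DESeq2 adjusted p = 0.121), Sema3b (0.0591) and Slit1 (0.152) in CiSCs against MEFs, Epha6 (0.13) in CiSCs against MSCs, and Sema3b (0.0524) and Slit1 (0.0895) in MSCs against MEFs. Without a filter, Sema3b (edgeR adjusted p = 0.0565) and Slit1 (0.052) ended in CiSCs against MEFs and Sema3b (0.0508) in MSCs against MEFs. With only the 2 groups fitted, Sema3b (edgeR adjusted p = 0.0881) ended in CiSCs against MEFs, and Efna3 (0.0768), Efna5 (0.0694) and Sema3b (0.0759) in MSCs against MEFs. Plxnb2 ended in CiSCs against MSCs with a filter of 5 CPM (edgeR adjusted p = 0.0512), and Sema3b in MSCs against MEFs with library totals (0.0572). DESeq2 added calls for Epha4 in CiSCs against MEFs (DESeq2 adjusted p = 0.0248), Efnb2 (0.0344) and Ephb2 (0.0205) in CiSCs against MSCs, and Slit2 (0.0399) in MSCs against MEFs. Library totals added Epha7 (edgeR adjusted p = 0.035) in CiSCs against MEFs, and Efnb2 (0.0129) and Ephb2 (0.0117) in CiSCs against MSCs. In CiSCs against MSCs, a fit of only these groups added Efnb2 (edgeR adjusted p = 0.0011), Ephb2 (0.00102), Nrp1 (0.022) and Slit2 (0.00216), and RLE size factors added Ephb2 (0.0405). The causes were not tested. Against a fold of 1.5, all genes called were 3664 of 15272 in CiSCs against MEFs, 4282 in CiSCs against MSCs and 3979 in MSCs against MEFs, where 6250, 6534 and 6497 were called as reported.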
